A study of Mus musculus with 14 samples.

Results

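Tubulin genes were followed in the olfactory epithelium, the sheet of the nose that holds the olfactory sensory neurons (OSNs), of 14 mouse pups at postnatal day 5. The set was 10 alpha- and beta-tubulin genes taken by symbol from 51211 gene symbols listed in the tables: 4 alpha genes (Tuba1a, Tuba1b, Tuba1c and Tuba4a) and 6 beta genes (Tubb2a, Tubb2b, Tubb3, Tubb4a, Tubb4b and Tubb5). The set was chosen by the lower Tuba1c values of the Kir2.1 mice, with the paralogs as comparison. The Kir2.1 values of these genes are therefore given as a description with no test. The odor-exposure values were not part of this rule and were tested. Earlier results of these data were known when the genes were chosen.

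In the Kir2.1 experiment, 3 mice carried OMP-IRES-tTA and tetO-Kir2.1-IRES-tauLacZ, and 3 controls carried OMP-IRES-tTA alone. Both groups thus had the Omp-driven transactivator, which acts in mature OSNs. The Kir2.1 mice alone had the transgene for the potassium channel that silences these cells. The labels name the Kir2.1 animals Kir2.1-Off, the study's name for mice whose transgene was shut off by doxycycline later in life, although these mice were taken at day 5. Transcripts of Kcnj2, the gene that encodes Kir2.1, were high in them, with 17926, 18530 and 24193 normalised counts against 986, 1074 and 1274 in controls, so the channel transcript was present at the time of sampling. Channel activity was not measured here. The same transcript also codes for tau-LacZ, a reporter fused to the microtubule-binding protein tau, so the channel and the tau fusion cannot be told apart in this design. In the PEA experiment, 4 wild-type pups were exposed to 2-phenylethylamine (PEA), an odor that mice avoid, from day 0 to day 5, and 4 wild-type pups were not exposed. The methods place the odor in the home cage, so pups of a cage shared the exposure. The labels give the strain as C57BL/6 for all 14 mice, whereas the methods name CD-1 for PEA pups.

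Microtubules are hollow polymers of alpha- and beta-tubulin dimers. They fill axons and dendrites, form the core of cilia and build the mitotic spindle. Each chain is encoded by several genes whose proteins are near-identical over most of their length and differ mainly in the acidic carboxy-terminal tail, where enzymes add or remove amino acids. Tuba1a is the main alpha gene of developing neurons, Tubb3 marks neurons, and cells also hold tubulin mRNA levels in check through free dimers, a feedback in which Ttc5 recognizes the nascent chain.

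The last 60 coding bases of the beta genes, stop codon included, are shown because this end encodes the tail that sets the isotypes apart. Capitals mark the bases that did not align with an identical base of Tubb5.
Tubb5, chr17:35834982-35835041, minus strand: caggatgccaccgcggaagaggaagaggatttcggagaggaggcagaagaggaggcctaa
Tubb2a, chr13:34074468-34074527, minus strand: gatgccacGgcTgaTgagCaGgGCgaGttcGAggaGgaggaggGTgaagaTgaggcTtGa
Tubb2b, chr13:34127471-34127530, minus strand: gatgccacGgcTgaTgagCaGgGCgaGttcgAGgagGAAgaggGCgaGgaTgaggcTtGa
Tubb3, chr8:123421623-123421682, plus strand: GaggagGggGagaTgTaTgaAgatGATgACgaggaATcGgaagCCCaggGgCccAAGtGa
Tubb4a, chr17:57080690-57080749, minus strand: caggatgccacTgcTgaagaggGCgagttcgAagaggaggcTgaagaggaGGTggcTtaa
Tubb4b, chr2:25222308-25222367, minus strand: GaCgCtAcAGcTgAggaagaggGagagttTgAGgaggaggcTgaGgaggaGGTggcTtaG

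Coordinates are those of GRCm38 in the GENCODE vM21 annotation, the assembly the authors used with Ensembl release 100. Tubb3, with 24 of the 60 bases in capitals, was the farthest from Tubb5, and Tubb4a, with 10, the nearest.

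The 3 alpha genes of chromosome 15 were hard to tell apart. Over the whole coding sequence (1350 bases in Tuba1c, 1356 in Tuba1a and Tuba1b), Tuba1a and Tuba1b were 98.3% identical, Tuba1b and Tuba1c 97.9% and Tuba1a and Tuba1c 97.1%, whereas Tuba4a was 84.7% to 85.3% identical to the other alpha genes. Among the beta genes, Tubb2a and Tubb2b were 96.5% identical, and the other pairs lay between 81.4% and 84.6%.

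Of the 1251 stretches of 40 bases, the read length of the Kir2.1 libraries, compared at matched coding positions, 63.3% were identical between Tuba1a and Tuba1b, 69.9% between Tuba1a and Tuba1c and 83.0% between Tuba1b and Tuba1c. Over the whole reference transcript, untranslated ends included, the share of 40-base windows found in no other annotated gene was 25.1% for Tuba1a, 25.4% for Tuba1b and 37.4% for Tuba1c. The corresponding shares were 98.0% for Tuba4a, 99.0% for Tubb3, 99.3% for Tubb4a and 98.2% for Tubb5, so these genes can be counted nearly free of their paralogs. Tubb4b (42.0%), Tubb2a (47.7%) and Tubb2b (57.5%) lay between. At 150 bases, the read length of the PEA libraries, the shares were 45.3% for Tuba1a, 42.1% for Tuba1b and 53.3% for Tuba1c. Values of the Tuba1 genes therefore rest in part on how Salmon divided shared reads, and are uncertain to that extent. Other annotated genes also overlap the set: Gm49450 runs over Tuba1a and Tuba1b, Gm41396 lies antisense to Tuba1b, and Stk16, Gm20388 and Fam166a overlap Tuba4a, Tubb3 and Tubb4b. Gm49450 was listed at 0 in all 6 mice of the Kir2.1 experiment and at 0 to 34.8 normalised counts in the PEA experiment. Kir2.1-experiment libraries kept no strand, so reads of Tuba1b and Gm41396 cannot be told apart where they overlap. Stk16 and Fam166a also lie on the strand opposite to Tuba4a and Tubb4b, so the same holds where those pairs overlap.

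**Figure D1:**
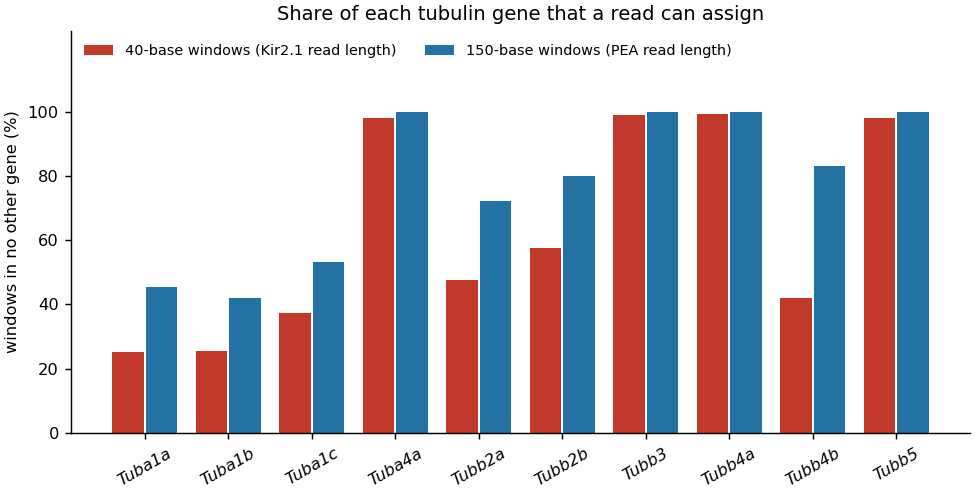
Percentage of all windows of 40 bases (red) and 150 bases (blue) of each gene's reference transcript that occur in no other annotated gene. Tuba1a, Tuba1b and Tuba1c have the lowest 40-base bars, at 25.1%, 25.4% and 37.4%, whereas Tuba4a, Tubb3, Tubb4a and Tubb5 are at 98.0% or above.

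The tables held counts that the authors normalised for depth. With the commonest value near 1 taken as 1 read, the values imply roughly 32500000 to 35400000 reads assigned to genes per Kir2.1-experiment library. The same estimate was 9800000 to 15100000 per PEA library. It is rough, because 25.8% to 32.8% (Kir2.1 experiment) and 7.87% to 11.1% (PEA) of low values were near whole multiples of that unit. Kir2.1-experiment libraries were made from poly-A RNA and PEA libraries from total RNA, so values are compared only within an experiment. Vomeronasal receptor genes, which mark the neighbouring vomeronasal organ, stood apart in some mice. Their mean log2 value was 6.06 in control 1 of the Kir2.1 experiment against 2.35 to 2.45 in the other 5 mice. In the PEA experiment it was 5.77, 4.68 and 3.91 in unexposed mice 1 to 3 and 5.33 in exposed mouse 1, against 1.38 to 1.66 in the other 4.

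To order the genes by level, each value was divided by the length of the gene's merged exons in kilobases. The order and the overlap of neighbours depend on this choice of length. Merged exons and longest transcript are 2088 and 1598 bases for Tubb4b, and 1875 and 1743 bases for Tuba1b. Per kilobase of longest transcript, Tubb4b would stand above Tuba1b in the Kir2.1-experiment controls. Tuba1a stood first in every group. In the Kir2.1-experiment controls its level was 103388 ± 3358 per kilobase (SD, n = 3), 4.82 times that of Tuba1b, the second gene at 21469 ± 47.1. Tubb4b, Tubb2b, Tubb5 and Tubb3 followed between 18699 and 17611 per kilobase, and each of these neighbours overlapped the next over the 3 mice. Tubb2a (5769 ± 681), Tuba1c (2554 ± 29.0), Tuba4a (820 ± 38.8) and Tubb4a (110 ± 16.3) came next, with no overlap between neighbours. Tuba1c was thus a minor alpha transcript of the epithelium, although none of the controls had fewer than 5767 normalised counts of it.

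The order of the alpha genes was the same in the PEA experiment, with Tuba1a at 13330 ± 810 per kilobase in unexposed mice (SD, n = 4), Tuba1b at 2407 ± 455, Tuba1c at 430 ± 111 and Tuba4a at 146 ± 14.5. Among the beta genes, Tubb4b (3449 ± 747) and Tubb5 (2988 ± 372) led, and their ranges overlapped. Tubb3 (1609 ± 168) and Tubb2b (1496 ± 231) followed and also overlapped. Tubb2a (472 ± 47.7) and Tuba1c overlapped in the unexposed mice but not in the exposed mice. Tubb4a was close to the level of single reads, with 0.805 to 6.45 normalised counts over the 8 mice, and was the only member that did not reach the mean of 10 needed for the test.

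**Figure D2:**
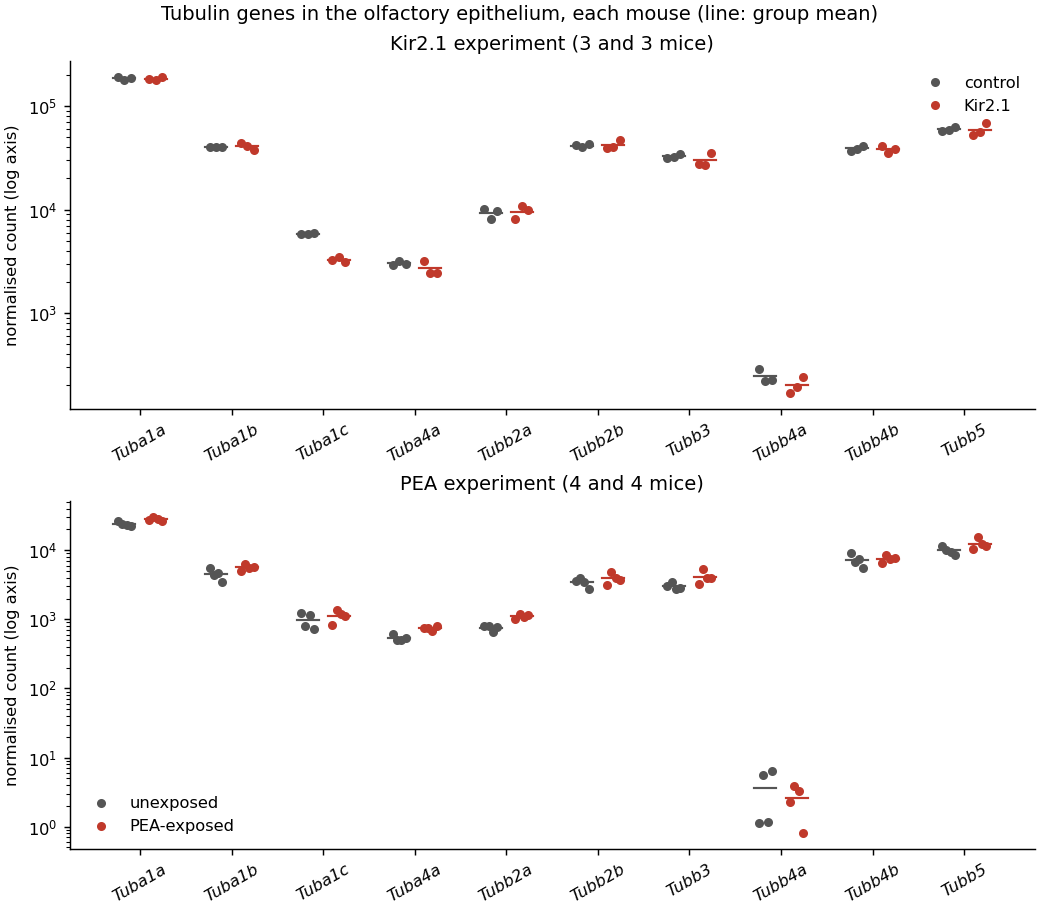
Normalised count of each tubulin gene on a log axis, one point per mouse, with the group mean as a line, in the Kir2.1 experiment (top, 3 controls in grey and 3 Kir2.1 mice in red) and the PEA experiment (bottom, 4 unexposed mice in grey and 4 exposed mice in red). Only Tuba1c has separate groups in the top panel, whereas Tuba1a, Tuba4a and Tubb2a have separate groups in the bottom panel.

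The Kir2.1 experiment asked which genes differ when mature OSNs carry Kir2.1. Tuba1c had 5867, 5767 and 5892 normalised counts in the 3 controls and 3235, 3482 and 3088 in the 3 Kir2.1 mice. The groups did not overlap, as in 9.04% of all genes in this direction, and the mean of the Kir2.1 mice was 44.1% lower. The difference was -0.84 ± 0.07 (SE) in log2(value + 1). Of the 19807 genes tested by limma with Benjamini-Hochberg adjustment, 0.353% were called at an adjusted p under 0.05 (0.278% lower). The choice of the set fixed that Tuba1c was among them (1 of 10 tubulin genes), so this count is no test of Tuba1c and nothing is read from it. Among the 55 genes called lower, 27 had a larger fall. Tuba1c was no longer called with limma run without a mean-variance trend, or with same-numbered mice fitted as a replicate block.

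The other 9 genes overlapped between groups. Tuba1a, the most abundant, had 192066, 180022 and 187138 normalised counts in controls and 181336, 178893 and 191684 in Kir2.1 mice. Its difference was -0.02 ± 0.08 in log2, the Kir2.1 values lying on both sides of a control. Tuba1b had 40173, 40349 and 40244 in controls and 43725, 41345 and 37899 in Kir2.1 mice, a difference of 0.02 ± 0.08. Its 3 controls were nearly the same, and the Kir2.1 mice fell above and below them. Tuba4a, the alpha gene outside chromosome 15, had 2928, 3197 and 2976 in controls and 3191, 2461 and 2454 in Kir2.1 mice, a difference of -0.18 ± 0.11. Kir2.1 mouse 1 lay with the controls and the other 2 below them.

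Of the beta genes, Tubb3 had 31432, 32417 and 34844 normalised counts in controls and 27596, 27188 and 35418 in Kir2.1 mice, a difference of -0.14 ± 0.12 in log2. Kir2.1 mouse 3 was above all controls, and the other 2 Kir2.1 mice were below them. Tubb4a, which in brain is a gene of myelinating glia, had the largest beta difference, -0.30 ± 0.18, with 287, 222 and 226 in controls and 168, 191 and 239 in Kir2.1 mice. The remaining differences were 0.04 ± 0.13 for Tubb2a, 0.01 ± 0.09 for Tubb2b, -0.03 ± 0.09 for Tubb4b and -0.03 ± 0.11 for Tubb5. Of the 10 differences, 3 were above 0, against 51.2% over all genes, and the median was -0.03, against 0.01.

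**Figure D3:**
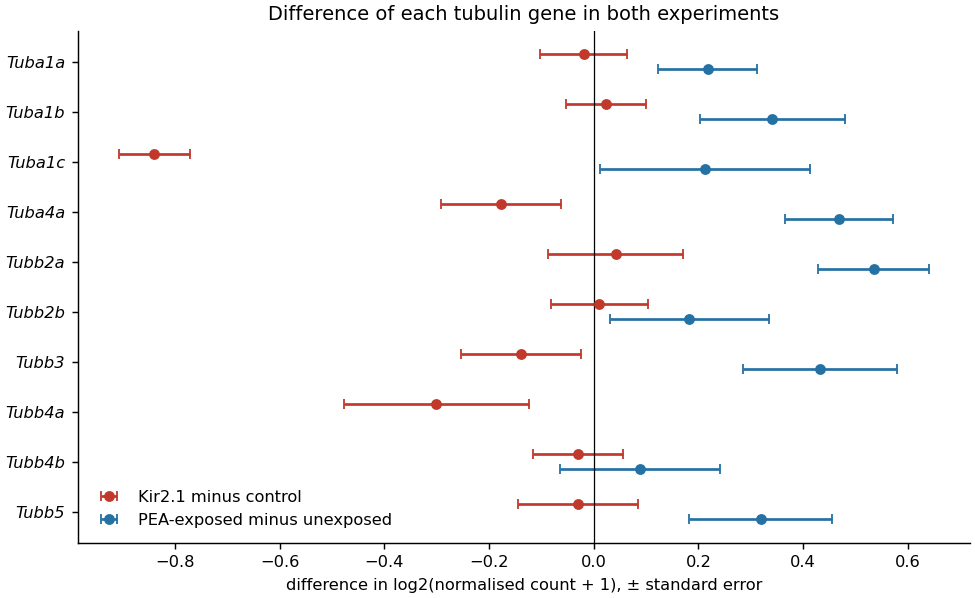
Difference in log2(normalised count + 1) of each tubulin gene, with its standard error, for Kir2.1 minus control (red) and PEA-exposed minus unexposed (blue). Tuba1c stands at -0.84 in the Kir2.1 experiment, where the other genes lie between -0.30 and 0.04, and the 9 PEA differences lie between 0.09 and 0.54. Tubb4a has no PEA point because it was below the filter.

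The fall of Tuba1c was small beside the family as a whole. The mean decrease was 2574 normalised counts, 1.38% of the control mean of Tuba1a, and less than the SD of Tuba1a among mice (6055 in controls and 6790 in Kir2.1 mice). The sum of the 4 alpha genes was 229335 to 241034 in controls and 226181 to 235126 in Kir2.1 mice, and these ranges overlapped. The sum of the 6 beta genes also overlapped, with 177837 to 192794 and 168311 to 200092. Per kilobase, Tuba1c made up 1.99% ± 0.03 of the alpha sum in controls and 1.13% ± 0.09 in Kir2.1 mice (SD, n = 3 each). As a ratio within each mouse, Tuba1c was 14.3% to 14.6% of Tuba1b in the controls and 7.40% to 8.42% in the Kir2.1 mice.

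Gene copies that share windows with Tuba1c overlapped between groups. Gm3226 and Gm14150, which share 42.7% and 38.3% of the 40-base windows of Tuba1c, had 85.7 to 189 and 87.6 to 158 normalised counts in controls, and 85.3 to 166 and 144 to 181 in Kir2.1 mice. Neither pair of groups was apart. Gm3756 (64.0 to 130 against 48.3 to 103) and Gm6682 (68.5 to 105 against 40.4 to 86.5) also overlapped. Gm17383 was listed at 0 in all 6 mice.

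**Figure D4:**
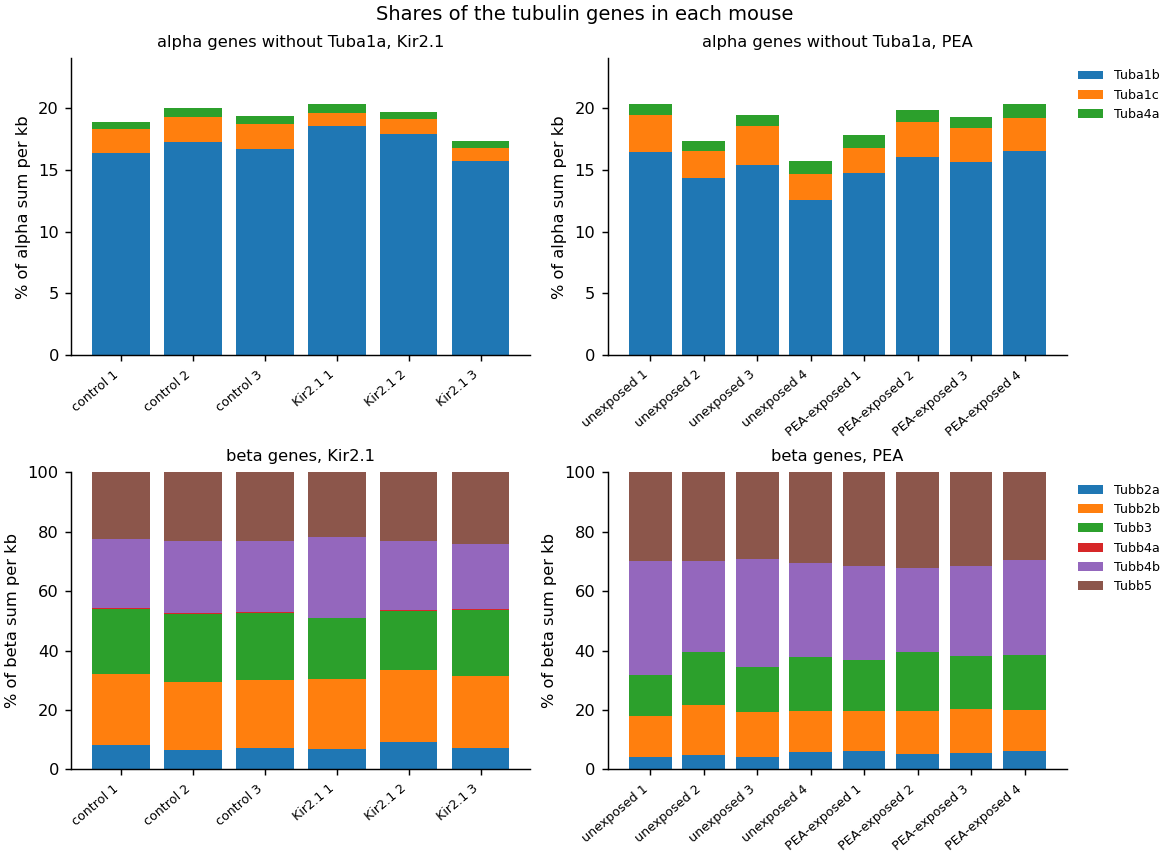
Percentage of the summed per-kilobase values of the 4 alpha genes (top, Tuba1a left out of the bars) and of the 6 beta genes (bottom) in each mouse of the Kir2.1 experiment (left) and the PEA experiment (right). The Tuba1c band takes 1.95% to 2.02% in the 3 controls and 1.05% to 1.23% in the 3 Kir2.1 mice, and 2.00% to 3.17% over the 8 mice of the PEA experiment.

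The 3 Tuba1 genes lie in one stretch of chromosome 15. Tuba1c is on the plus strand at chr15:99029891-99038110, and Tuba1a (chr15:98949837-98953703) and Tuba1b (chr15:98931425-98934565) start 76.2 and 95.3 kb away on the minus strand. Within 250 kb of the start of Tuba1c, 15 other genes were tested besides Tuba1a and Tuba1b, and 0 were called by limma, with 1 at an unadjusted p under 0.05 against 11.1% of all genes. That 1 gene was 4930578M01Rik, a noncoding transcript 46.5 kb from Tuba1c, with 581 ± 43.4 normalised counts in controls and 757 ± 4.52 in Kir2.1 mice (log2 difference 0.38, limma adjusted p = 0.177). Prph, which encodes the neuronal filament peripherin and starts 25.3 kb away, had a difference of 0.09 ± 0.12.

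**Figure D5:**
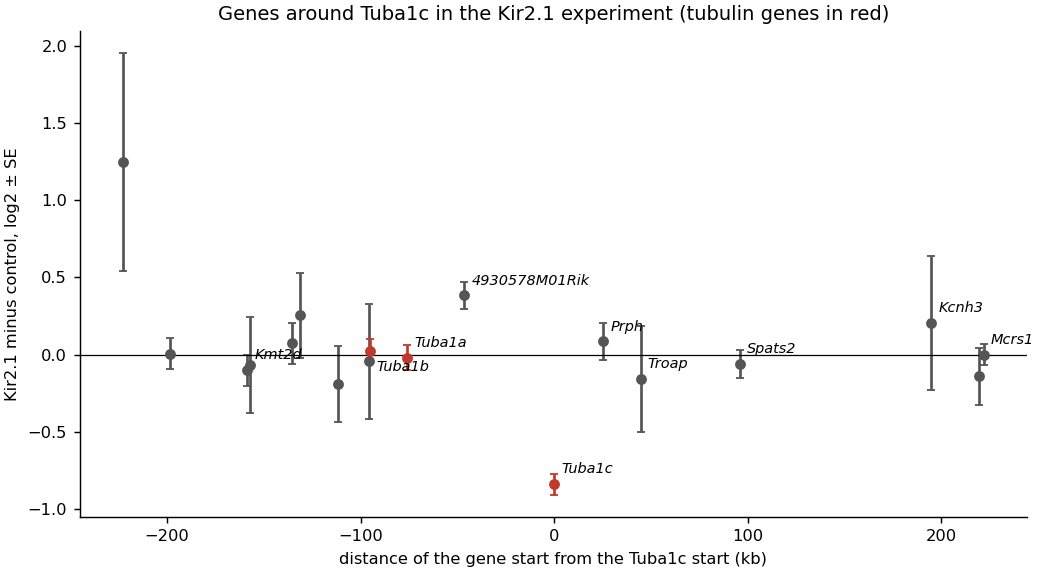
Kir2.1 minus control in log2, with standard errors, for the genes tested within 250 kb of Tuba1c, against the distance of their start from that of Tuba1c in kilobases (tubulin genes in red). Tuba1c is at -0.84, whereas the 15 non-tubulin genes lie between -0.19 and 1.25, the highest with a standard error of 0.70.

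The promoter window of Tuba1c, from 250 bases before to 50 bases after its start in the RefSeq table (GRCm38.p6, chr15:99029641-99029940, plus strand), is shown because Tuba1c had the one separate pair of groups among the 10 genes. Capitals mark a match to CCAAT on either strand, here read as its reverse complement.
Tuba1c promoter: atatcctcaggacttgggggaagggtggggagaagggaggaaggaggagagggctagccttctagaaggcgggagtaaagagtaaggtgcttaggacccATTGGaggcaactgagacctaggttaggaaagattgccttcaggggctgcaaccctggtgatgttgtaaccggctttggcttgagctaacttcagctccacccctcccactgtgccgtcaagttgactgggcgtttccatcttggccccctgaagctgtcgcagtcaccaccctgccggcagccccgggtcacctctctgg

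CCAAT was present in 37.4% of the 32851 promoter windows of the table. GGGCGG (35.7% of windows), TATAAA (13.6%), CACGTG (7.15%) and TGACGTCA (1.79%), searched on both strands, had no match in this window. Matches of this kind are a description of letters.

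Markers of mature OSNs were lower in the same mice as Tuba1c. All 10 markers of this list were lower in Kir2.1 mice, with a median log2 difference of -0.40, whereas 51.2% of all genes were above 0. All 10 were lower at an unadjusted p under 0.05, against 6.20% of all genes, 9 had groups apart, against 9.04%, and 1 was called, against 0.278%. That one was Omp, which encodes the olfactory marker protein, with 31853 to 36226 normalised counts in controls and 21062 to 23516 in Kir2.1 mice (log2 difference -0.60 ± 0.08, limma adjusted p = 0.0466). Omp is also the gene whose locus carries the transactivator in both groups. The summed level of the list was 133944 to 150130 in controls and 99137 to 112662 in Kir2.1 mice, and none of its markers was at 0. Immature OSN markers, 8 in number, had a median of -0.03 and overlapping sums. In whole epithelium, fewer cells of a type and less RNA per cell cannot be told apart, and the part of this shift in the Tuba1c result was not tested. Markers of blood cells had higher values, with 5 of 5 above 0 in log2 difference, and sums of 7058 to 11505 in controls and 12479 to 19007 in Kir2.1 mice. Of these, 4 were higher at an unadjusted p under 0.05, against 4.93% of all genes, 3 had groups apart, against 7.26%, and 0 were called by limma. The 11 markers of multiciliated cells, whose cilia are rich in tubulin, were also all above 0 in log2 difference (median 0.23), with 2 at an unadjusted p under 0.05 and 0 called by limma. The 5 horizontal basal cell markers were all above 0 (median 0.34) and the 7 sustentacular cell markers all below 0 (median -0.09), with 0 of either at an unadjusted p under 0.05. All 5 vomeronasal markers tested were below 0, with a median of -1.16 and 1 at an unadjusted p under 0.05. That one was Trpc2, a channel of vomeronasal neurons, with 528, 376 and 283 normalised counts in controls and 225, 145 and 152 in Kir2.1 mice (log2 difference -1.16 ± 0.26, limma adjusted p = 0.173). The other 4 had overlapping groups, with differences of -1.77 ± 1.03 for Vmn1r51, -1.56 ± 0.98 for Vmn2r1, -0.19 ± 0.11 for Gnao1 and -0.09 ± 0.27 for Gnai2. The mean vomeronasal receptor value was high in control 1 alone (6.06), against 2.43 in controls 2 and 3 and 2.35 to 2.45 in Kir2.1 mice.

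The genes most like Tuba1c were sought among 16704 genes tested in both experiments, as those with the smallest root-mean-square difference from Tuba1c over the 14 mice, on log2 values centred within each experiment. They were Nxnl2 (0.18), Cartpt (0.21), Nptx2 (0.22), Pcp4l1 (0.22) and Stom (0.22), against a median of 0.44 over all genes. Nptx2 encodes a neuronal pentraxin, a secreted synapse protein, and Cartpt a neuropeptide precursor. In the Kir2.1 experiment, Nptx2 had a mean of 2232 normalised counts in controls and 1145 in Kir2.1 mice, and Nxnl2 1054 and 575. Their differences were -0.96 and -0.86 in log2. These genes were picked for their likeness to Tuba1c over mice that include those of the Kir2.1 experiment, so this restates the choice. In the PEA experiment the differences were 0.35 for Nptx2 and 0.01 for Nxnl2. In this order Tubb4b stood at place 285, Tuba1b at 532, Tubb5 at 964, Tuba1a at 1277, Tubb2b at 1340, Tuba4a at 1424, Tubb3 at 1859 and Tubb2a at 6109. These places rest on the same Kir2.1 values that set the choice, so they are a description and nothing is read from them.

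Genes that make, fold, modify or bind tubulin were taken from 6 lists with 121 genes in all. In the Kir2.1 experiment 115 were tested and 0 were called by limma, with 2 higher and 9 lower at an unadjusted p under 0.05, against 4.93% and 6.20% of all genes. The median difference was 0.00 for the 115 genes and 0.01 for all genes. Of the other tubulin genes, Tubb6, a beta gene of many non-neuronal cells, had 655 to 1396 normalised counts in controls and 1239 to 1283 in Kir2.1 mice, and Tubd1, a delta-tubulin of centrioles, 242 to 255 and 268 to 381. Their log2 differences were 0.46 ± 0.25 (adjusted p = 0.570) and 0.31 ± 0.16 (adjusted p = 0.545), and the Tubd1 groups did not overlap. Groups apart in this direction were found in 7.26% of all genes.

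The smallest p in these lists was that of Mapt, which encodes tau. Mapt had 3755, 3605 and 3835 normalised counts in controls and 4441, 4753 and 5359 in Kir2.1 mice. All Kir2.1 mice were above all controls, with a log2 difference of 0.37 ± 0.08 and a limma adjusted p of 0.167, which did not pass. The Kir2.1 mice carried a tau-LacZ transgene, and its part in the counts assigned to Mapt was not tested. Ttll7, a ligase that adds glutamates to the tubulin tail, had 7406, 7446 and 6781 in controls and 5338, 6048 and 5825 in Kir2.1 mice (log2 difference -0.33 ± 0.08, adjusted p = 0.176). Ttll6, a second enzyme of this kind, and Sirt2, a deacetylase of alpha-tubulin, had differences of -0.30 ± 0.09 (adjusted p = 0.295) and -0.24 ± 0.09 (adjusted p = 0.375). None of these passed the test. The chaperonin subunit Tcp1 differed by 0.16 ± 0.06 (adjusted p = 0.402). Ttc5, which senses nascent tubulin chains, differed by -0.06 ± 0.06 (adjusted p = 0.790).

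In the lattice-binding list, Tppp and Map7d2, which stabilize microtubules or recruit kinesin to them, had differences of -0.32 ± 0.11 (adjusted p = 0.325) and -0.28 ± 0.11 (adjusted p = 0.380). In the nucleation list, which holds the gamma-tubulin ring and augmin complexes, Haus4, Tubgcp6 and Haus2 had differences of -0.23, -0.19 and -0.26. In the list of dimer-binding and severing proteins, Kif2a, a kinesin that takes microtubules apart, had a difference of -0.14 ± 0.07 (adjusted p = 0.542), and Dpysl2 and Stmn3, which bind tubulin dimers, had differences of -0.18 and -0.11. Pfdn4 and Tbca, both of the folding pathway, were at 0.26 and 0.17, and Tubg2, a gamma-tubulin, at -0.22. The lowest adjusted p among the 3 nucleation and the 3 dimer-binding genes named here was 0.444, so that these values describe the lists without a call.

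The PEA experiment asked what exposure to the odor did. Of the 10 tubulin genes, 9 were tested and 0 were called by limma at an adjusted p under 0.05, against 0.179% of 17322 genes. All 9 differences were above 0, as were 46.5% over all genes, and their median was 0.32 against -0.02. At an unadjusted p under 0.05, 6 of the 9 were higher, against 8.93% of all genes. The groups did not overlap for 3 of them, Tuba1a, Tuba4a and Tubb2a, all higher in exposed mice, as in 5.46% of all genes. The 9 values come from the same 8 mice and share reads in part, so they are not 9 independent observations.

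Tubb2a, a neuronal beta gene, came closest to the threshold. It had 798, 812, 647 and 785 normalised counts in unexposed mice and 1004, 1184, 1074 and 1139 in exposed mice. Every exposed mouse was above every unexposed mouse, with a log2 difference of 0.54 ± 0.11, a limma p of 0.000453 and an adjusted p of 0.0847. At a threshold of 0.10 it was the 1 tubulin gene called. Tubb2b, its near-identical neighbour on chromosome 13, had 3628, 3964, 3430 and 2708 in unexposed mice and 3096, 4775, 3990 and 3761 in exposed mice. These groups overlapped, and the difference was 0.18 ± 0.15 (limma adjusted p = 0.614). Of the 150-base windows of Tubb2a, 72.1% occur in no other annotated gene and 27.9% are shared with Tubb2b.

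Tuba4a had 614, 506, 496 and 542 normalised counts in unexposed mice and 743, 757, 684 and 798 in exposed mice. The groups were again apart, with a log2 difference of 0.47 ± 0.10 and a limma adjusted p of 0.108. This gene has 100% of its 150-base windows to itself. Tubb3, which also has, had 2988, 3451, 2731 and 2857 in unexposed mice and 3219, 5325, 3902 and 3982 in exposed mice. Exposed mouse 1 lay among the unexposed values, and the difference was 0.43 ± 0.15 (limma adjusted p = 0.223). Tubb5 had 11504, 10228, 9442 and 8591 in unexposed mice and 10563, 15429, 12414 and 11424 in exposed mice, which overlapped (0.32 ± 0.14, limma adjusted p = 0.312).

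Tuba1a had 26033, 24148, 23254 and 22697 normalised counts in unexposed mice and 26937, 30258, 27885 and 26685 in exposed mice. The lowest exposed mouse was just above the highest unexposed mouse, and the difference was 0.22 ± 0.09 in log2 (limma adjusted p = 0.318). Tuba1b had 5581, 4345, 4612 and 3510 in unexposed mice and 5017, 6276, 5601 and 5738 in exposed mice (0.34 ± 0.14, limma adjusted p = 0.293). Tuba1c had 1238, 802, 1162 and 729 in unexposed mice and 831, 1351, 1196 and 1132 in exposed mice. The groups of Tuba1c overlapped almost fully, and its difference of 0.21 ± 0.20 had a limma adjusted p of 0.659. Tubb4b, a beta gene of cilia, differed by 0.09 ± 0.15 (limma adjusted p = 0.827).

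The 4 mice with high vomeronasal receptor values were 3 of the 4 unexposed mice and 1 of the 4 exposed mice, so that these values moved with the groups. Without them, 1 unexposed mouse remained, which had the lowest value of Tuba1a, Tuba1b, Tuba1c, Tubb2b, Tubb4b and Tubb5 in its group, and its spread was taken to be that of the exposed mice. The differences of Tubb2a and Tuba4a were then 0.53 and 0.46 in log2. Those of Tuba1b, Tuba1c, Tubb2b, Tubb4b and Tubb5 were 0.74, 0.75, 0.62, 0.52 and 0.60, and 0 of the 9 were called. With the mean vomeronasal value as a covariate, the differences were 0.51 for Tubb2a, 0.49 for Tuba4a and 0.37 for Tubb3. Unexposed mouse 4 alone set the sign of Tubb4b, whose difference was -0.03 without that mouse.

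Of 6 copies of the alpha genes outside the set, Gm14150 alone had exposed and unexposed groups apart. Gm14150, which shares 18.7% of the 150-base windows of Tuba1b and 8.18% of those of Tuba1c, had 1398, 621, 656 and 1054 normalised counts in unexposed mice and 164, 430, 209 and 184 in exposed mice. All exposed mice were below all unexposed mice, as in 3.86% of all genes (log2 difference -1.94 ± 0.33, limma adjusted p = 0.0608). Gm3226 had 216, 45.0, 52.9 and 159 in unexposed mice and 8.04, 164, 3.31 and 14.2 in exposed mice, which overlapped. These genes were singled out after their values were seen. With the 6 copies (Gm3226, Gm14150, Gm17383, Gm3756, Gm5620 and Gm6682) added to Tuba1b, the log2 difference of the sum was 0.10, against 0.34 for Tuba1b alone in the same experiment. With Gm14150 as the only copy added, it was 0.13. With the copies added to Tuba1a, the exposed and unexposed sums overlapped, and the difference was 0.17.

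The alpha family was also summed with these copies, which were singled out after their values were seen. The 4 alpha genes summed to 27478 to 33467 normalised counts in unexposed mice and 33528 to 38642 in exposed mice, ranges that did not meet. With the 6 copies they summed to 28851 to 35271 and 33785 to 39423, ranges that overlapped. The 6 beta genes summed to 20465 to 28149 and 24431 to 35200, which overlapped too. The Tuba1c share of the alpha sum per kilobase was 2.62% ± 0.54 in unexposed mice and 2.55% ± 0.38 in exposed mice (SD, n = 4 each), a difference of -0.06 percentage points with an exact two-sided permutation p of 0.914. The Tubb3 share of the beta sum was 16.2% ± 2.13 and 18.3% ± 1.13, a difference of 2.06 points (exact two-sided permutation p = 0.200, n = 4 each). Over the 10 shares tested, Benjamini-Hochberg adjusted values were 0.914 and 0.400, and 0.381 was the lowest. The smallest p that 4 against 4 mice allow is 0.0286.

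Of the wider lists, 114 genes were tested in the PEA experiment and 0 were called by limma, with 8 higher and 10 lower at an unadjusted p under 0.05, against 8.93% and 6.04% of all genes. Their median difference was -0.04, against -0.02 over all genes and 0.32 for the 9 tubulin genes tested. By list, the medians ran from -0.18 for lattice and end binding to 0.04 for the other tubulin genes. Kif2a had 708 to 1116 and 472 to 624, a difference of -0.62 ± 0.15 (adjusted p = 0.123). Tubg1, a gamma-tubulin of nucleation sites, had 134 to 162 and 177 to 254, a difference of 0.51 ± 0.14 (adjusted p = 0.157), and Tubg2 differed by 0.64 ± 0.28.

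The lattice- and end-binding list had 20 of 27 genes below 0 and 7 above 0, where 46.5% of all genes were above 0. Its median was -0.18, against -0.02. At an unadjusted p under 0.05, 6 were lower and 1 higher, against 6.04% and 8.93% of all genes. Groups were apart for 3 lower and 1 higher, against 3.86% and 5.46%, and 0 were called by limma. In that list Mapre2, Clasp2 and Ckap5, proteins that track growing microtubule ends, differed by -0.36, -0.27 and -0.35 (limma adjusted p = 0.167, 0.185 and 0.240). Mapt differed by -0.24 ± 0.17 (adjusted p = 0.534), with overlapping groups. Akap9, a scaffold of nucleation at the Golgi, differed by -0.32 ± 0.09 (adjusted p = 0.171), Haus8 by 0.65 and Tubgcp2 by 0.30. Of the modifying enzymes, Agtpbp1, which trims glutamates from tubulin, differed by -0.34 ± 0.10 (adjusted p = 0.157), and Atat1, which acetylates alpha-tubulin, by 0.52 ± 0.21 (adjusted p = 0.298). Ttll4 was at 0.19 and Katnal2 at -0.36. In the folding list, Arl2, Pfdn6 and Tcp1 differed by 0.43, 0.25 and -0.23, and Ttc5 by 0.09 ± 0.09 (adjusted p = 0.683). Tubb6, in contrast to the 9 tubulin genes, differed by -0.14 ± 0.15 (adjusted p = 0.719).

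Markers of mature OSNs did not move together in the PEA experiment, with 4 of 10 above 0 and a median of -0.08. Omp had 6087 to 7326 normalised counts in unexposed mice and 7510 to 10082 in exposed mice (log2 difference 0.31, limma adjusted p = 0.252), while Gnal, the olfactory G protein, differed by -0.37 (adjusted p = 0.165). Summed mature OSN levels were 34539 to 39683 and 33612 to 39019, and summed immature OSN levels 10366 to 11407 and 10089 to 10979. The 11 multiciliated markers had sums of 12405 to 17583 and 12468 to 15817. These sums all overlapped between groups. Of 5 horizontal basal cell markers, all were above 0, with a median of 0.25 and sums of 971 to 1820 and 1391 to 1725. At an unadjusted p under 0.05, 2 were higher, against 8.93% of all genes, and 1 had groups apart, against 5.46%. Of 5 glial markers tested, 2 were above 0 and 3 below. Among these, 2 were lower at an unadjusted p under 0.05, against 6.04%, and 1 had groups apart, against 3.86%. In both lists 0 were called by limma.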

How the data were processed

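Libraries from 14 olfactory epithelia were analysed. The authors quantified reads with Salmon 1.3.0 against GRCm38 (mm10, Ensembl release 100), summed transcripts to genes with tximport 1.18.0 and deposited normalised counts (a signal, not whole reads) from DESeq2 1.30.0, 1 table per experiment. Kir2.1 libraries were poly-A, unstranded, with 40-base reads, and PEA libraries ribosome-depleted total RNA, stranded, with 150-base reads; the methods give one stranded library type (SR) for Salmon in both.

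Every gene whose mean deposited value reached 10 entered limma 3.58.1 with a mean-variance trend on log2(value + 1) (R 4.3.3), each experiment alone, with Benjamini-Hochberg adjustment and a threshold of 0.05. The pseudocount of 1 makes differences of low genes smaller. The fit was tested on simulated data. Shares were compared by exact permutation (scipy 1.17.1). A mouse was 1 replicate. The labels do not say that litters or cages differ, so p-values measure the spread between these mice. PEA was given by cage, so exposure may not be separable from litter or cage.

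Named genes were all 10 members, every called gene of the wider lists, the 3 genes of smallest p per list and experiment, Mapt and Ttc5. The members and lists were chosen with earlier results of these data known. Windows and coding sequences came from GENCODE vM21 transcripts, and promoters from RefSeq, which matched 9 of 10 members. Alternatives covered pseudocounts, filters, the trend, median centring, a replicate block, covariates, the threshold and each mouse left out. One gene that the rule for named genes would name, and some sequences, are not reported here.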

Additional observations from a re-analysis of the deposited data

Results flagged for a closer look

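In the PEA experiment, Tubb2a in unexposed mouse 3 was 647 normalised counts, set apart from the other 3 unexposed mice (785 to 812). Its gap to the next mouse was 0.837 of the whole range of the group, above Dixon's critical value at the 95% level. This was 1 of 40 groups of 4 checked (the values and family shares of the 10 genes), and chance passes this limit in about 1 group of 20.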

How the results depend on the processing

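The Kir2.1 difference of Tuba1c stayed between -0.89 and -0.80 in log2 over all alternatives tried. The count of tubulin genes called, which the choice of the set fixed and which is no test of them, was 1 as reported, 0 without a trend and 0 with a replicate block. The PEA count of tubulin genes called was 0 except at a threshold of 0.10, where it was 1, as was that of microtubule genes. The number of all genes called in the Kir2.1 experiment, 70, became 20 without a trend, 9 with a replicate block, 22 with the vomeronasal covariate, 44 with Xist as a covariate (chosen after seeing the data) and 171 at 0.10. It was 23 to 44 with a mouse left out. In the PEA experiment, 31 genes became 52 without a filter, 20 with the vomeronasal covariate, 128 at 0.10 and 49 without the 4 mice with high vomeronasal values (chosen after seeing the data), and 19 to 43 with a mouse left out. The PEA difference of Tubb4b ranged from -0.0307 to 0.217 with a mouse left out, turning negative without unexposed mouse 4. The Tuba1c share of the alpha sum ranged from -0.22 to 0.13 percentage points with a mouse left out, turning to 0.06 without unexposed mouse 1, 0.13 without unexposed mouse 3 and 0.12 without exposed mouse 1, and it was 0.60 without the 4 mice. The cause was not tested. The other 414 values under an alternative were counted as the same. They kept their side of the threshold, moved by less than the SD between mice (Kir2.1 differences) or stayed within 1.5 times the main count. Among them, the Tubb3 share of the beta sum had no p without the 4 mice. Its PEA difference was then 0.47 percentage points, against 2.06 as reported. Same-numbered mice did not pair: the correlations of their deviations were -0.06, -0.01 and 0.16 (Kir2.1) and 0.13, -0.02, -0.05 and 0.10 (PEA). With the replicate block, the PEA adjusted p of Tubb2a was 0.160. Reads shared among the Tuba1 genes, and between Tubb2a and Tubb2b, limit how firmly their values can be told apart.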
